A study of Mus musculus with 6 samples.

Results

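The Ifit genes encode interferon-induced proteins with tetratricopeptide repeats, which bind RNA in the cytosol and act against viruses. Rows of a deposited table of read counts were taken as members where the gene symbol was Ifit followed by a digit. This gave 6 of 16539 listed genes: Ifit1, Ifit2, Ifit3 and Ifit3b, and also the less studied Ifit1bl1 and Ifit1bl2. All 6 passed the filter on low counts and were among the 12097 genes tested. Values per library are listed in the order of replicates 1, 2 and 3.

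Counts came from poly(A) RNA-seq of granulocyte-monocyte progenitors sorted by flow cytometry, which in bone marrow produce neutrophils and monocytes. The gate is not described. The cells came from wild-type (WT) mice on day 3 after myocardial infarction, the loss of heart muscle that follows a blocked coronary artery. There were 3 libraries of control mice with infarction and 3 of mice with infarction and sleep fragmentation, the repeated interruption of sleep. Every group had the infarction, so no library shows the level without it, and the labels do not give age or sex or say whether a library pooled mice. P-values therefore measure only the spread between these libraries, which may be partly technical. In such bulk samples, fewer cells that express a gene and less RNA per cell cannot be told apart.

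In the classical pathway, type I interferon binds the receptor made of Ifnar1 and Ifnar2, and the factor ISGF3, which holds Stat2 and Irf9, enters the nucleus. ISGF3 binds a DNA element with repeated GAAA, the interferon-stimulated response element, and Ifit genes are among its strongest targets. Ifit1 binds viral RNA whose cap lacks methylation of the first nucleotide and keeps it from being translated. Sensors of viral RNA can also switch on Ifit genes through Irf3 without interferon.

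Totals ran from 28971253 to 31665923 counts per library, and 14047 to 14265 genes had a count. All 14 progenitor markers on a list written for this work were in the table, among them Kit at 175.0 ± 16.5 CPM (SD, n = 3; counts per 1e+06 of the scaled library) in control libraries. Their sum lay between 17680 and 19765 CPM in control libraries and between 13142 and 18983 CPM after sleep fragmentation, lowest in replicate 1, with 4 of 14 fitted higher and 0 at an unadjusted p under 0.05. Markers of other cells were present at varied levels. Eosinophil markers summed to between 2653 and 4796 CPM in control libraries and between 3196 and 4412 CPM after sleep fragmentation. For basophil or mast cell markers the sums were 1142 to 2587 CPM and 1045 to 2289 CPM. Maturing neutrophil markers summed to between 45022 and 79309 CPM in control libraries and between 50774 and 124477 CPM after sleep fragmentation, and all 12 had higher fitted levels, with 4 at an unadjusted p under 0.05. Monocyte and macrophage markers summed to between 1912 and 2020 CPM in control and between 2037 and 2190 CPM after sleep fragmentation, with 7 of 11 higher and 0 at an unadjusted p under 0.05. Beside these lists, 49.0% of all tested genes were fitted higher. At an unadjusted p under 0.05, 2.16% of all tested genes were higher and 2.82% were either higher or lower. Of 8 markers of plasmacytoid dendritic cells, strong makers of interferon, 7 were in the table, with sums between 28.5 and 49.6 CPM in control and between 36.3 and 44.8 CPM with sleep fragmentation. Of these, 2 were tested and 1 was fitted higher. Nearly all of the sum came from these 2, Bst2 (11.5 to 19.6 CPM) and Tcf4 (16.9 to 29.5 CPM), so it says little of these cells. Bst2, the one fitted higher, is also on the list of other interferon-stimulated effectors used below. The defining marker Siglech was too low to test, with 0, 2 and 1 reads against 10, 2 and 5 reads, and its groups overlapped. Ly6d, also too low to test, had 1, 0 and 7 reads against 6, 14 and 16 reads. In CPM its groups did not overlap, with sleep fragmentation higher. Ccr9 and Cox6a2 had at most 4 and 6 reads in any library, both in control replicate 3, and Klk1 had none.

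The family sits in one cluster on mouse chromosome 19, in the order Ifit2, Ifit3, Ifit1bl1, Ifit3b, Ifit1bl2 and Ifit1. Sequences before the annotated starts are shown because they hold the letters that ISGF3 and related factors can bind. They come from RefSeq on build GRCm38.p6, an older build than the GRCm39 used for the counts, and all 6 genes matched by symbol. Capitals mark the motif GAAANNGAAA, which reads TTTCNNTTTC where it lies on the other strand, and each sequence ends at the base before the start.
Ifit1, chr19:34640744-34640888, plus strand: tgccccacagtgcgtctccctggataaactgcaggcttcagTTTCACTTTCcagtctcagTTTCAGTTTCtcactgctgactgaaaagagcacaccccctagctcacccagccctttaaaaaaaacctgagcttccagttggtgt
Ifit3, chr19:34583369-34583528, plus strand: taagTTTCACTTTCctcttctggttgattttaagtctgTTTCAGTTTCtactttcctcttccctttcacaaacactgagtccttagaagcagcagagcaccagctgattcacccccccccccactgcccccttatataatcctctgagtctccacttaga
Ifit3b, chr19:34607765-34607956, plus strand: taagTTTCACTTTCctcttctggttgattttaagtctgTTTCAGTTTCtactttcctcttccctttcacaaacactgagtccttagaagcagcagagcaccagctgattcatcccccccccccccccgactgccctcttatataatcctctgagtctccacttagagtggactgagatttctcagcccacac
Ifit1bl1, second annotated start, chr19:34601969-34602078, minus strand: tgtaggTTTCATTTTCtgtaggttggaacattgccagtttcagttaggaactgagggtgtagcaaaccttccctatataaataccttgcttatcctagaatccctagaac
Ifit2, first annotated start, chr19:34550584-34550693, plus strand: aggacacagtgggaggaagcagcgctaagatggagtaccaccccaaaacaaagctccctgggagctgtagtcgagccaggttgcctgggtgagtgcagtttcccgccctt

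The Ifit1 sequence is the whole stretch of 145 bases between the start of Ifit1 and that of Ifit1bl2, which is read in the opposite direction. Both motif matches of Ifit1 are therefore also the 2 matches of the second Ifit1bl2 start. Ifit3 and Ifit3b each held 2 matches, and their aligned upstream sequences were identical at 216 of 218 bases. Ifit1bl1 held 1 match at each of its starts. Neither annotated Ifit2 start held a match in the 250 bases before it, and other Ifit2 starts were not analysed here. The motif was held by 6 of the 9 annotated Ifit promoters, and by 2.98% of all promoters in the table in a window of the same length. A match is only a run of letters, and its absence from a window says nothing of the factor.

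**Figure D1:**
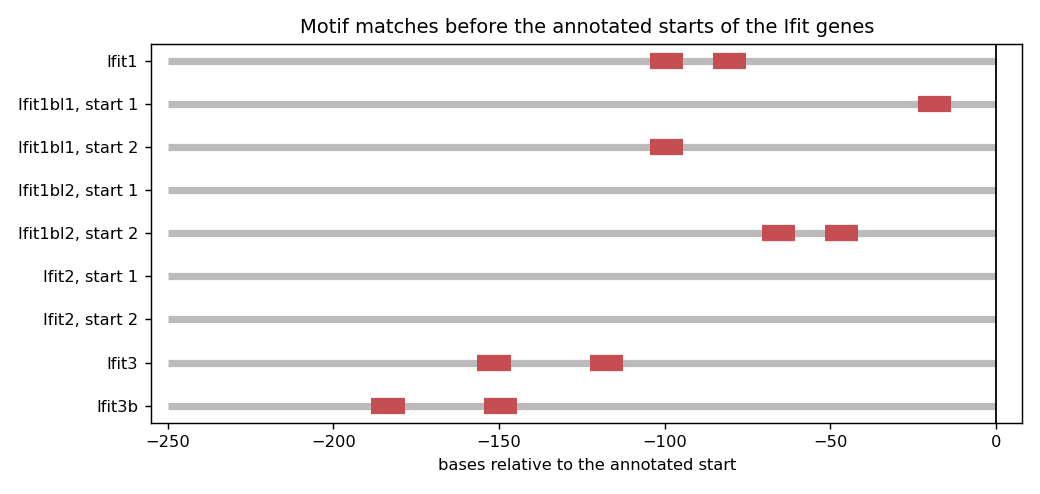
Matches to the motif GAAANNGAAA on either strand (red) in the 250 bases (grey) before each annotated start of the Ifit genes, with the start at 0. Ifit1, Ifit3, Ifit3b and the second Ifit1bl2 start hold 2 matches each, and neither Ifit2 start holds any.

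Ifit1, Ifit3 and Ifit3b were low in control libraries and higher in every sleep fragmentation library. Ifit1 had 15, 55 and 68 reads in the controls and 390, 205 and 196 reads with sleep fragmentation. The groups did not overlap, with control replicate 1 far below its group and sleep fragmentation replicate 1 far above its own. In CPM the means were 1.43 ± 0.84 and 9.38 ± 4.52 (SD, n = 3), a 6.53-fold fitted difference, with a 95% interval from 1.51 to 3.91 on the log2 scale.

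Ifit3, which in human cells stabilises IFIT1, had 6, 52 and 56 reads in the controls and 370, 158 and 87 reads with sleep fragmentation. Its groups did not overlap either, and the same libraries stood at the ends. Mean levels were 1.18 ± 0.86 and 7.31 ± 5.71 CPM (SD, n = 3), a log2 fold change of 2.62 (SE 0.75).

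Ifit3b, a nearly identical copy of Ifit3, had 6, 19 and 17 reads in the controls and 275, 75 and 64 reads with sleep fragmentation. Sleep fragmentation replicates 2 and 3 were alike, and replicate 1 held more than the other 2 libraries together. Its means of 0.44 ± 0.22 and 4.99 ± 4.59 CPM (SD, n = 3) gave a log2 fold change of 3.50 (SE 0.72), the highest of the family.

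Ifit2 was the exception among the 4 better known genes, since it was well expressed in every library and hardly differed between groups. This protein binds RNA and has been linked to cell death. Its reads numbered 1776, 1424 and 1375 in the controls and 1614, 1416 and 1291 with sleep fragmentation. The groups overlapped. Means were 47.7 ± 7.43 and 50.6 ± 8.67 CPM (SD, n = 3), and the 95% interval of the fitted ratio ran from 0.82 to 1.37, so that a 1.5-fold difference lay outside it.

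Ifit1bl2 and Ifit1bl1 lay between these patterns. Ifit1bl2, also named Ifit1b, had 171, 676 and 293 reads in the controls and 1050, 439 and 514 reads with sleep fragmentation. Control replicate 2 exceeded 2 of the 3 sleep fragmentation libraries, so the groups overlapped. The log2 fold change was 1.0 (SE 0.52), with means of 11.9 ± 8.48 and 23.9 ± 13.5 CPM (SD, n = 3).

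Ifit1bl1, also named Ifit1c, had few reads, 35, 21 and 14 in the controls and 44, 37 and 26 with sleep fragmentation. The groups overlapped, and the log2 fold change of 0.77 had a 95% interval from -0.40 to 1.93. With this interval a difference of the size seen in Ifit1bl2 could be neither shown nor set aside. The SE of 0.51 was close to the 0.52 of Ifit1bl2, which had more reads.

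**Figure D2:**
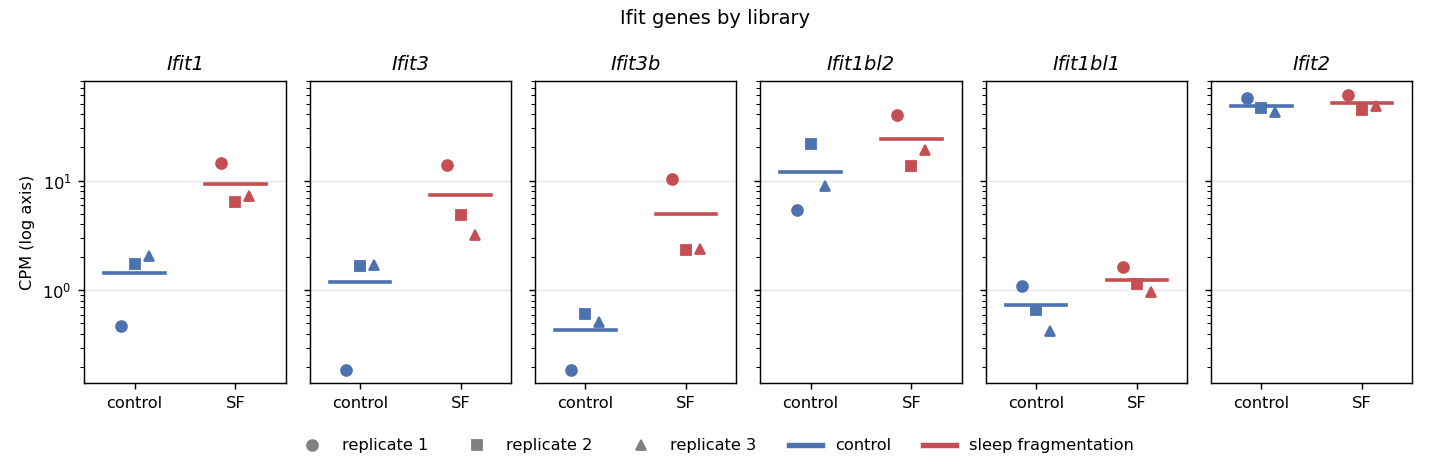
CPM of each Ifit gene (log axis) in the 3 control and 3 sleep fragmentation (SF) libraries, with symbols for replicates and a bar for each group mean. Ifit1, Ifit3 and Ifit3b do not overlap between groups, while Ifit2 lies between 41.8 and 60.4 CPM in all 6 libraries.

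None of the 6 genes passed edgeR's quasi-likelihood test with Benjamini-Hochberg adjustment over all 12097 genes (adjusted p = 0.99988 for each), and that test called 0 genes in all (0%). By the unadjusted p (under 0.05), 3 of the 6 were higher and 0 lower, where 2.16% of all tested genes were higher, 0.661% lower and 2.82% either. Their unadjusted edgeR p was 0.00067 for Ifit1, 0.00097 for Ifit3b and 0.0071 for Ifit3, against 0.088 for Ifit1bl2, 0.17 for Ifit1bl1 and 0.62 for Ifit2. By size of p, Ifit1 ranked 5 and Ifit3b 7 among the tested genes. All 6 fitted levels were higher, where 49.0% of all genes were, and the median log2 fold change was 1.81 beside -0.0043 over all genes. Groups did not overlap, with sleep fragmentation higher, in 3 of the 6 and in 2.92% of all genes. Among all genes sleep fragmentation was lower without overlap in 3.84%, which makes 6.75% for both directions, and 0 members were lower in this way.

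DESeq2's Wald test called Ifit1 and Ifit3b (adjusted p = 0.00051 for both), among the 0.107% of genes that it called. Ifit3 had an adjusted p of 0.79 by DESeq2, with nearly the same fitted difference of 2.65 (log2) and a wider SE of 1.0. limma-voom called 0 genes and gave unadjusted p-values of 0.0012 for Ifit1, 0.0073 for Ifit3b and 0.013 for Ifit3.

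Replicate 1 of both groups held the extreme values. Without sleep fragmentation replicate 1 the log2 fold change was 2.24 for Ifit1, 1.77 for Ifit3 and 2.41 for Ifit3b. Without replicate 1 of both groups, an alternative added once values had been seen, it was 1.83 for Ifit1, 1.27 for Ifit3, 2.05 for Ifit3b and 0.095 for Ifit1bl2. The direction of the first 3 genes was the same in each of these fits. For Ifit1bl2 the size rested on single libraries: it was 0.44 without sleep fragmentation replicate 1, and 1.74 without control replicate 2.

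**Figure D3:**
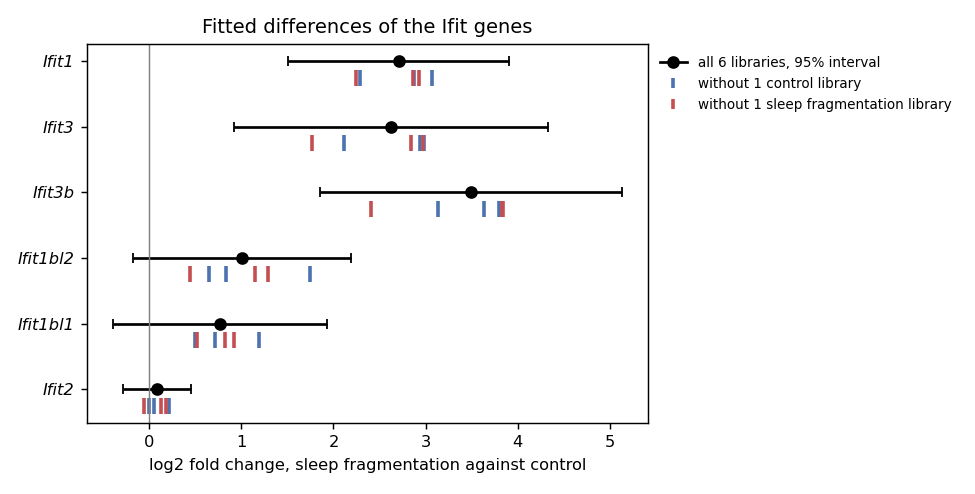
Log2 fold change of each Ifit gene, sleep fragmentation against control, from edgeR, as a point with its 95% interval. Coloured ticks show the fit with 1 library left out, which for Ifit1 runs from 2.24 to 3.07 and for Ifit2 from -0.064 to 0.21.

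Levels of different genes were compared per kilobase of the exons annotated in GENCODE M21. On this scale Ifit2 was the highest member in all 6 libraries but its lead shrank. It had 12.2 ± 1.89 CPM per kilobase in control (SD, n = 3), followed by Ifit1bl2 at 3.55 ± 2.52. The other 4 lay between 0.22 ± 0.11 for Ifit3b and 0.68 ± 0.49 for Ifit3, with overlapping ranges among Ifit3, Ifit1 (0.54 ± 0.32) and Ifit1bl1 (0.32 ± 0.15). After sleep fragmentation Ifit2 had 12.9 ± 2.21 and Ifit1bl2 7.11 ± 4.02, while Ifit3 (4.19 ± 3.27), Ifit1 (3.53 ± 1.70) and Ifit3b (2.49 ± 2.29) had overlapping ranges. Within each sleep fragmentation library Ifit3b was below both Ifit1 and Ifit3. Ifit1bl1 was then lowest, at 0.55 ± 0.16. Ifit3 and Ifit3b share long stretches of sequence, and how reads from these were counted is not known. The places of these 2 genes in the order are therefore uncertain.

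The make-up of the family's reads differed between the groups. Ifit2 made up 88.4%, 63.4% and 75.4% of all Ifit reads in the controls, and 43.1%, 60.8% and 59.3% with sleep fragmentation. Ifit1, Ifit3 and Ifit3b together made up between 1.34% and 7.73% in control libraries and between 15.9% and 27.7% after sleep fragmentation. These shares did not overlap between the groups. Summed over the 6 genes, the level was 63.5 ± 8.05 CPM for controls and 97.5 ± 37.0 CPM with sleep fragmentation (SD, n = 3), a log2 fold change of 0.62 (SE 0.24) that did not pass edgeR's test when the sum was fitted as 1 gene (adjusted p = 0.99972).

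A ratio of 2 genes within a library does not depend on the library's scaling. For each 100 Ifit2 reads there were 0.84, 3.86 and 4.95 Ifit1 reads in the controls and 24.2, 14.5 and 15.2 with sleep fragmentation. The lowest sleep fragmentation library was thus well above the highest control. The mean log2 ratio was 2.79 higher after sleep fragmentation (exact permutation p = 0.1, 2-sided, the smallest that 3 against 3 libraries allow). The ratio of Ifit3 to Ifit2 was higher by 2.81 on the log2 scale (exact permutation p = 0.1), without overlap.

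Ifit1 and Ifit1bl2, which start on either side of the sequence shown first, did not keep a fixed ratio. There were 11.4, 12.3 and 4.31 Ifit1bl2 reads for each Ifit1 read in the controls, and 2.69, 2.14 and 2.62 with sleep fragmentation. The groups did not overlap, and the 3 sleep fragmentation libraries were much closer to each other than the controls (difference of -1.77 in the mean log2 ratio, exact permutation p = 0.1, 2-sided). Over the 6 libraries their log2 CPM nevertheless moved together (Pearson r = 0.82), as both were highest in sleep fragmentation replicate 1 and lowest in control replicate 1. The 15 Ifit1 reads of control replicate 1 were 8.06% of the reads of the pair, with an exact 95% interval for counting error only from 4.58% to 13.0%.

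For Ifit3 and Ifit1 no such separation was seen. There were 0.40, 0.95 and 0.82 Ifit3 reads for each Ifit1 read in the controls and 0.95, 0.77 and 0.44 with sleep fragmentation. The groups overlapped widely (difference of 0.020 in the mean log2 ratio, exact permutation p = 0.9, 2-sided). Of the 6 ratios computed, 3 reached the smallest p of 0.1 that 6 libraries allow, and none can pass 0.05, adjusted or not.

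**Figure D4:**
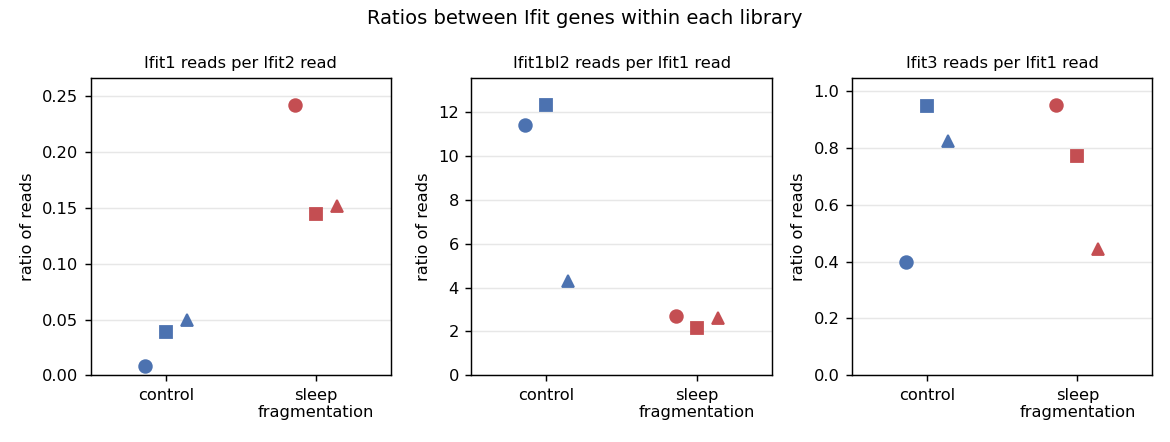
Ratios of reads between Ifit genes within each library, with symbols for replicates 1 (circle), 2 (square) and 3 (triangle) of control (blue) and sleep fragmentation (red). Ifit1 per Ifit2 read and Ifit1bl2 per Ifit1 read do not overlap between groups, while Ifit3 per Ifit1 read runs from 0.40 to 0.95 in control and from 0.44 to 0.95 after sleep fragmentation.

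Ifit3 and Ifit3b are so alike that their separate counts are uncertain. Their coding sequences, both 1209 bases long in GENCODE M21, were identical at 1198 bases. The first 120 coding bases show how little there is to tell them apart, with the differing base in capitals.
Ifit3: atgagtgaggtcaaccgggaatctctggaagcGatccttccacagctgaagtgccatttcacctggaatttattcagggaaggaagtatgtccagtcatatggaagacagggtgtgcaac
Ifit3b: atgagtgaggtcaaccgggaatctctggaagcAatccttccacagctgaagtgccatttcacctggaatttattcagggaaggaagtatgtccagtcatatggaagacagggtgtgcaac
Of all stretches of 100 bases in the Ifit3 transcript, 31.7% also occurred in Ifit3b, and of those of 50 bases 51.2%. Reads from such stretches match both genes, and the sources used here do not say how they were counted. Ifit3b took 6 of 12, 19 of 71 and 17 of 73 reads of the pair in the controls, and 42.6%, 32.2% and 42.4% with sleep fragmentation, with overlap. For the 12 reads of control replicate 1 the exact 95% interval of this share ran from 21.1% to 78.9%, for counting error only. With the pair summed as 1 gene, which removes misassignment between them but not the loss of ambiguous reads, the log2 fold change was 2.92 (SE 0.71). This sum did not pass edgeR's quasi-likelihood test.

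The other members were easier to separate. Ifit1bl1 and Ifit1bl2 shared 88.3% of aligned coding bases, and Ifit1 shared 77.0% with Ifit1bl2. Ifit2 shared no stretch of 50 bases with any other member, and of the stretches of 100 bases in Ifit1, 3.29% occurred in another. The strand setting was not given, so reads of overlapping genes on opposite strands cannot be told apart.

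Interferon genes themselves had almost no reads. Of 21 on the list 4 were in the table, with at most 7 reads in any library, and 0 were tested. Ifnb1, the gene of interferon beta, had 1 read in 1 control library and none elsewhere. The receptor subunits were steady, with 67.9 ± 6.14 against 68.5 ± 5.55 CPM for Ifnar1 and 102.0 ± 7.13 against 103.8 ± 4.47 CPM for Ifnar2 (SD, n = 3).

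Irf9, a DNA-binding subunit of the factor that carries the signal, had 34.9, 48.1 and 50.5 CPM in the controls and 95.5, 62.4 and 57.8 CPM with sleep fragmentation, without overlap. Stat2 had 52.9 ± 0.54 against 56.8 ± 9.51 CPM (SD, n = 3), with overlap. Of 10 tested receptor and ISGF3 genes, including the kinase Jak1 and the interferon gamma receptor subunit Ifngr2 (log2 fold changes 0.28 and 0.24), 0 passed edgeR's test. Of the 10, 8 were fitted higher, as were 49.0% of all genes. By the unadjusted p (under 0.05), 2 were higher and 0 lower (2.16% of all genes higher). That count of 2 was 0 without replicate 1 of both groups. The median log2 fold change over the list was 0.13.

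Other genes that respond to interferon had smaller fitted differences than Ifit1, Ifit3 and Ifit3b. These lists, like the choice of the family, were made with earlier results of these data known, so their direction is not independent support. By the unadjusted p, 2.16% of all tested genes were higher. Of 19 tested antiviral genes that act on RNA, 7 were higher and 0 lower by the unadjusted p and 0 passed the adjusted test, with a median log2 fold change of 0.60. Without sleep fragmentation replicate 1 that median was 0.18. The count of 7 was 4 without replicate 1 of either group, and 3 without both. Its leading members were Oasl2 (10.4, 21.7 and 19.3 CPM against 86.7, 33.6 and 35.9 CPM) and Oas3, which makes a messenger that activates RNase L (39.5 ± 17.4 against 114.5 ± 69.3 CPM), with the helicase Ddx60 and Slfn5 (log2 fold changes 1.17 and 1.34).

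Of 35 other tested interferon-stimulated effectors, 17 were higher and 0 lower by the unadjusted p (2.16% of all genes higher) and 0 passed, with a median of 0.45. The count was 10 without control replicate 1 and 5 without replicate 1 of both groups. The 4 with the smallest p were Rsad2, which makes a chain-terminating nucleotide (log2 fold change 2.04, SE 0.45), and Rtp4, Ifi204 and Xaf1 (1.74, 1.41 and 1.40). Of 7 tested feedback genes, 3 were higher and 0 lower by the unadjusted p (2.16% of all genes higher) and 0 passed. Leaving out 1 library gave counts from 1, without control replicate 1, to 4, without control replicate 2, and leaving out replicate 1 of both groups gave 0. Usp18, which shuts off the receptor, had 2.62 ± 1.63 against 8.84 ± 4.44 CPM, and Isg15, Socs1 and Socs3 had log2 fold changes of 1.21, 1.09 and 0.59.

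Of 20 tested sensors and other genes upstream of interferon, 6 were higher and 0 lower by the unadjusted p (2.16% of all genes higher) and 0 passed, with a median of 0.058. The count was 2 when replicate 1 of either group was left out, 2 when both were, with a median then of -0.026, and 3 with scaling by library size only. The 4 with the smallest p were Zbp1 (log2 fold change 1.49), Irf7 (1.28, with 11.5 ± 3.48 against 27.9 ± 17.8 CPM, SD, n = 3), Ddx58 (0.66) and Ifih1 (0.47).

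**Figure D5:**
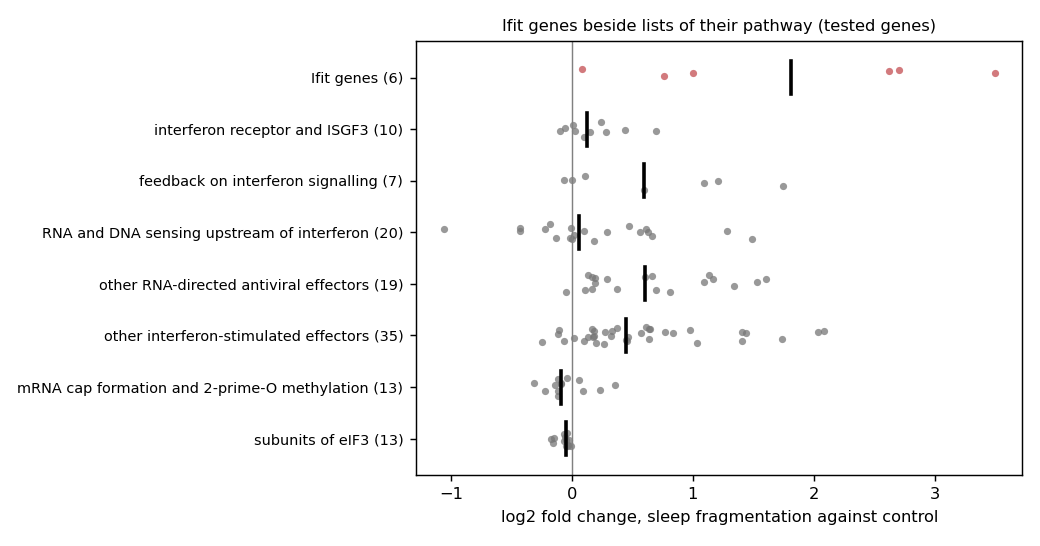
Log2 fold changes of the tested genes of each list (points, number of genes in brackets) with the list median (black bar), sleep fragmentation against control. Ifit1, Ifit3 and Ifit3b lie between 2.62 and 3.50, Ifit2 lies near 0, and the list medians lie between -0.092 and 0.60.

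Across the 6 libraries, 4 members varied alike. In log2 CPM, Pearson r was 0.97 between Ifit1 and Ifit3, 0.97 between Ifit1 and Ifit3b and 0.95 between Ifit3 and Ifit3b. Ifit1bl2 had r between 0.82 and 0.86 with these genes, while Ifit2 had r of 0.098 with Ifit1. These are descriptions over 6 libraries that share the grouping and the same extreme libraries. The mean profile of the family was -1.54, -0.39 and -0.70 in the controls and 1.69, 0.47 and 0.47 with sleep fragmentation, as centred log2 CPM.

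Among 9504 other genes with a mean of at least 5 CPM, the 10 most alike to that profile were Lbh, Oasl2, Ddx60, Rsad2, Basp1, Camk1d, Oas3, Arl3, Irf9 and Gpr65, with r between 0.976 and 0.997. Of these, 5 were on the pathway lists, which held 106 of the 9504 genes compared. With deviations from the group means in place of levels, 0 of the 10 most alike genes were on the lists and 0 were among the 10 named here. Lbh, first in likeness, spanned little in level, from 41.0 CPM in control replicate 1 to 49.7 CPM in sleep fragmentation replicate 1. Likeness in this sense says nothing of the size of a difference.

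The neutrophil markers moved with part of this profile. Their summed level was highest in sleep fragmentation replicate 1 (124477 CPM), where the Ifit genes were also highest. Sleep fragmentation replicate 3 had 114937 CPM of those markers, also above all controls, with 7.23 CPM of Ifit1 and 2.36 CPM of Ifit3b. In sleep fragmentation replicate 2 the marker sum was 50774 CPM, within the control range, while Ifit1 there had 6.34 CPM and Ifit3b 2.32 CPM, above all controls. Control replicate 2, with 79309 CPM of those markers, had 1.75 CPM of Ifit1 and 0.60 CPM of Ifit3b. The part of cell composition in the Ifit differences was not tested.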

How the data were processed

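The authors deposited raw read counts per gene symbol for 6 libraries. The submitters' processing notes name fastp, HISAT2, HTSeq and build GRCm39. Versions, annotation release and strand setting are not given in the sources used here. Libraries were grouped by their titles. The counts were fitted with edgeR 4.0.16 (R 4.3.3): filterByExpr (minimum count 10, minimum total 15), TMM scaling (factors 0.910 to 1.086), estimateDisp and glmQLFTest (robust), with p adjusted after Benjamini and Hochberg over 12097 genes and a threshold of 0.05. CPM are counts per 1e+06 of the TMM-scaled library. SE is the log2 fold change over the root of F. DESeq2 1.42.0, limma 3.58.1, other scalings and filters, and leaving out libraries were alternatives. Depth was alike in all libraries, and within-group differences far exceeded counting noise.

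Likeness is Pearson r of log2 CPM (prior count 2) with the mean centred profile of the 6 Ifit genes, with no p. Ratios were compared by exact permutation in SciPy 1.17.1. Transcripts were aligned with Biopython 1.88. Genes named were all Ifit rows, per list up to 4 tested members of smallest p, the 10 most alike genes, the 4 annotated neighbours on each side, and Ifnar1, Ifnar2, Stat2, Irf9 and Irf7. A further gene of this rule is not reported here. Members and lists were chosen with earlier results of these data known.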

Additional observations from a re-analysis of the deposited data

How the results depend on the processing

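The direction of Ifit1, Ifit3, Ifit3b, Ifit1bl2 and Ifit1bl1 was the same in every alternative fit run, and 81 of 86 alternative values for Ifit genes kept direction and side of the threshold. This count says little, since the adjusted p was 0.99988 for each gene in the main fit and only DESeq2 called any gene. It also ignores size, and so includes Ifit1bl2 at 0.095 without replicate 1 of both groups, from 1.0 in the main fit. Ifit2, near 0, changed sign when scaled by library size only (log2 fold change -0.027), a scaling under which the median over all genes was -0.11, and it ran from -0.064 to 0.21 when 1 library was left out. DESeq2 gave log2 fold changes of 2.73 for Ifit1 and 3.53 for Ifit3b, which it called, among 13 genes called in all. Without replicate 1 of both groups the medians were 0.34 for feedback genes, 0.15 for RNA-directed effectors and 0.027 for cap genes. The median of cap genes was -0.19 when scaled by library size only. Leaving out 1 library, it ran from -0.15 to -0.024, and that of RNA-directed effectors from 0.18 to 0.80. With deviations from group means, 0 of the 10 most alike genes were on the pathway lists. The cause of these shifts was not tested. With the replicate number as a block, Ifit1 had a log2 fold change of 2.71, Ifit3 2.46 and Ifit3b 3.11, with 0 genes called and 169 at an unadjusted p under 0.05 in place of 341. The labels do not say whether same-numbered libraries shared a day or other handling. Correlations between their deviations from the group means were -0.25, -0.37 and -0.0059. Differently numbered libraries had correlations from -0.24 to 0.41. With 3 libraries per group, whose deviations are not independent, these values can neither show nor exclude a shared batch. Counts were low for Ifit1bl1 in all libraries, and for Ifit3 and Ifit3b in control replicate 1.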

Other observations

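Genes that flank the Ifit cluster differed among themselves. Of the 4 annotated genes nearest on each side in RefSeq (GRCm38.p6), Lipa, a lysosomal lipase, was measured at 57.3 ± 0.50 CPM in controls and at 57.2 ± 1.90 CPM with sleep fragmentation (SD, n = 3). Slc16a12, next to Ifit1, had at most 9 reads in any library. Fas, a death receptor farther out on the side of Ifit2, had 6.63, 10.7 and 9.03 CPM in the controls and 15.6, 11.8 and 16.7 CPM with sleep fragmentation. Its groups did not overlap, with an unadjusted edgeR p of 0.0098 and an adjusted p of 0.99988. Ch25h, Gm31417, Gm46654, Gm18425 and Gm22082 had no row under these symbols in the table of read counts. Protein-coding genes farther out were added after values were seen. Past Slc16a12, Kif20b, a kinesin of cell division, had 130.7 ± 8.82 against 126.3 ± 13.3 CPM (SD, n = 3). Pank1 on that side had 13.4 ± 2.35 against 12.2 ± 4.59 CPM, and Htr7 had at most 4 reads in any library. Acta2, beyond Fas, had 2.90 ± 1.67 against 4.34 ± 2.07 CPM. The groups overlapped for each of these genes.

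Further lists hold genes of translation and of RNA caps, on which Ifit proteins act. For comparison, 6170 of all 12097 tested genes were fitted lower, and 2.82% were at an unadjusted p under 0.05 in either direction. All 13 tested subunits of the initiation factor eIF3, which some Ifit proteins bind, had slightly lower fitted levels (median log2 fold change -0.046) and 0 were at an unadjusted p under 0.05. The members with the smallest p were Eif3l, Eif3g, Eif3b and Eif3k, with log2 fold changes of -0.14, -0.17, -0.15 and -0.064. That median turned positive, at 0.037, when sleep fragmentation replicate 1 was left out. Of 13 tested genes of cap formation, 4 were fitted higher and 9 lower (median -0.092), and 0 were at an unadjusted p under 0.05. Cmtr1, which methylates the first nucleotide after the cap and is itself induced by interferon, had 158.9 ± 30.6 against 203.7 ± 58.2 CPM (SD, n = 3). Ramac, which activates the cap methyltransferase, had 51.1 ± 4.17 against 60.0 ± 1.89 CPM without overlap, and Dxo and Cmtr2 had log2 fold changes of -0.22 and -0.31.

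The motif GAAANNGAAA stood before the start of 8 of 16 tested RNA-directed antiviral genes with a promoter in the table. The same held for 9 of 27 other interferon-stimulated effectors, and for 3.34% of all tested genes with a promoter. On the remaining lists the motif stood before 2 of 5 feedback genes and 1 of 16 sensing genes. Receptor and ISGF3 genes had it in 1 of 9, eIF3 subunits in 1 of 10 and cap genes in 0 of 9.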
